A study of Mus musculus with 6 samples.

Results

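A set of 10 genes of the actin cytoskeleton was followed in mouse liver: the cytoplasmic actins Actb and Actg1, the transcription factor gene Srf, and Vcl, Flna, Myh9, Tpm1, Tpm4, Cnn2 and Cfl1, which encode proteins that bind, bundle or pull on actin filaments. They were picked by symbol, as genes of actin and of serum response factor (SRF) reported to be rhythmic over the day in liver, with results of the comparison already known, so their differences between the groups are a description. All 10 were present among the 15092 genes of the deposited table and among the 13816 that were tested. Messenger RNA was sequenced from 3 liver samples titled NC_WT and 3 titled NC_CRY1KO, here called WT and CRY1 KO. All were of strain C57BL/6J with no treatment listed, and the prefix NC shared by the titles is not interpreted here. The protein made from Cry1, a cryptochrome, represses transcription in the circadian clock. The labels state neither the hour of collection nor the age or sex of the mice, do not say how the knockout was made, and do not say whether each sample was a separate animal, so a p-value here reflects sample-to-sample spread that may be technical. A daily rhythm therefore could not be examined in these data.

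Actin moves between a pool of single subunits, called monomers, and filaments. Free monomers hold the coactivators MRTF-A and MRTF-B (genes Mrtfa and Mrtfb) in the cytoplasm, and when monomers are taken up into filaments, MRTF enters the nucleus and activates genes together with SRF. Actin genes, Srf itself and many genes of actin-binding proteins are among the targets, so the pathway feeds back on the supply of actin. In mouse liver, blood-borne signals that change with the time of day are known to alter this actin and SRF activity in hepatocytes.

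SRF binds a sequence of 10 bases known as the CArG box, in which 6 A or T bases stand between a pair of C and a pair of G. A search of the RefSeq promoter table (assembly GRCm38.p6, an earlier build than the GRCm39 named for the deposited data) for exact CArG boxes on both strands, from 250 bases before to 50 bases after each annotated start, matched 9 of the 10 genes by symbol. Exact boxes stood in 4 of these 9, namely Srf, Actg1, Vcl and Cnn2, against 1.81% of the 27025 genes of that promoter table and 1.53% of the 10919 tested genes found in it. The genes were named as SRF targets, so this count describes the choice. The 250 bases before the start are printed for these 4 genes, to show where the boxes lie, at chr17:46556163-46556412 on the minus strand for Srf, chr11:120348496-120348745 on the minus strand for Actg1, chr14:20929148-20929397 on the plus strand for Vcl and chr10:79988350-79988599 on the plus strand for Cnn2. Each is written from 5′ to 3′ on the strand of the gene, with CArG boxes in capitals.
Srf: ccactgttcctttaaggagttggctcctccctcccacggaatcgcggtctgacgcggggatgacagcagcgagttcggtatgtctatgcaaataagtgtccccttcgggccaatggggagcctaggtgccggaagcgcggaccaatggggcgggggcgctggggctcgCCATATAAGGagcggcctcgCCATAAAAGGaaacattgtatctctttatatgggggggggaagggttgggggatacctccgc
Actg1: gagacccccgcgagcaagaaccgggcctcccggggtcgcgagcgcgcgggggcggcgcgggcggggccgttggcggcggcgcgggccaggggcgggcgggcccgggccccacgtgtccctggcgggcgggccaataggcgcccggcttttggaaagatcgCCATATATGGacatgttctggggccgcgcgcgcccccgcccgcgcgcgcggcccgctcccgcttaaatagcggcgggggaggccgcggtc
Vcl: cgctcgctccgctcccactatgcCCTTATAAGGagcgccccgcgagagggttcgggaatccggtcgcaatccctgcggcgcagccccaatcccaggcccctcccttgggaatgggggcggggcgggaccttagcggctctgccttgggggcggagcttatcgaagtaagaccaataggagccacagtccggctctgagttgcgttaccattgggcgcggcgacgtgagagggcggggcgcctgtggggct
Cnn2: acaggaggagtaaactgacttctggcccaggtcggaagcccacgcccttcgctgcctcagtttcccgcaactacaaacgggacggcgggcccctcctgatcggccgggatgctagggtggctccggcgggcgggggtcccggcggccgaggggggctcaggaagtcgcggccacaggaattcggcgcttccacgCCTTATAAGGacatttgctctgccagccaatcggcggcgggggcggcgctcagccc
Srf carried 2 boxes, beginning 82 and 62 bases before its start, Actg1 carried 1 at 90 bases, Cnn2 carried 1 at 56 bases and Vcl carried 1 at 227 bases. The boxes of Vcl and Cnn2 were the same 10 bases. The motif CACGTG, the E-box bound by CLOCK and BMAL1, was searched for on both strands in the same windows. It was found in 1 of the 9 genes, Actg1, where it begins 141 bases before the start and does not overlap the CArG box, against 11.2% of the tested genes in the promoter table. A match is a description of letters and does not show that a factor binds there.

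Library totals ran from 79708703 to 91316332 estimated counts. Levels are given as CPM, the share of a library's estimated counts scaled up to a fixed total. Cry1 itself was not lower under the knockout label, at 4.80, 6.89 and 7.24 CPM in WT 1, 2 and 3 against 6.95, 6.41 and 5.22 CPM in CRY1 KO 1, 2 and 3 (log2 difference -0.03, SE 0.19, edgeR adjusted p = 0.954). It therefore does not check the labels, and CRY1 KO below means the libraries that carry this label. WT 1 stood apart in haemoglobin genes, which took 0.267% of its counts against 0.0435% to 0.0917% in the other libraries. The cell type is labelled hepatocyte. The 12 hepatocyte markers added up to 87590 to 105300 CPM in a library. Alb made up most of this sum in each library, so it does not stand for the rest of the list. Of the 12, edgeR called 1 higher, Hnf4a (log2 difference 0.73, adjusted p = 0.0389), and 0 lower, against 1.06% and 0.644% of all tested genes. Markers of other liver cells were found as well, with 345 to 416 CPM for 12 sinusoidal endothelial markers and 212 to 315 CPM for 14 markers of stellate and smooth muscle cells. CPM uses TMM-scaled library sizes (trimmed mean of M values) and is not corrected for gene length. Levels are therefore compared mainly between libraries, and a sum, ranking or ratio of genes by CPM also reflects gene length.

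Actb, which encodes cytoplasmic β-actin and is a common reference gene, was the single gene of the 10 that passed the test over all genes, and it was lower in CRY1 KO. Its level was 517, 530 and 421 CPM in WT 1, 2 and 3, and 324, 317 and 279 CPM in CRY1 KO 1, 2 and 3. The groups did not overlap, and WT 3 was the lowest WT library. From a mean of 489 ± 59.9 to 307 ± 23.9 CPM (SD, n = 3 each), the log2 difference was -0.67 (SE 0.12, edgeR adjusted p = 0.0349), which places the group labelled CRY1 KO at 62.7% of WT. The count of 1 called gene in 10 stands beside 1.7% of all 13816 tested genes called in either direction and 0.644% called lower, and nothing is read from it because the genes were chosen with this contrast in view. The call was lost without WT 2 (adjusted p = 0.153), CRY1 KO 1 (0.101), CRY1 KO 2 (0.146) or CRY1 KO 3 (0.167), while the log2 difference stayed between -0.77 and -0.61 over the 6 libraries left out in turn.

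Actg1 encodes cytoplasmic γ-actin, a protein nearly identical to β-actin. Its level was 84.6, 89.8 and 54.8 CPM in WT and 57.2, 42.7 and 63.7 CPM in CRY1 KO. WT 1 and WT 2 stood above every CRY1 KO library, and WT 3 fell within their range. The log2 difference was -0.49 (SE 0.22, edgeR adjusted p = 0.264), with a 95% interval from limma-voom of -0.97 to 0.03. Actg1 had the widest spread of the 10 genes in WT, a coefficient of variation of 24.7%, and in CRY1 KO its 19.7% was just below the 20.2% of Tpm4. The actin genes have near-identical copies, including processed pseudogenes, so reads that match several of them make each single value uncertain. The sum of Actb and Actg1 does not depend on how reads were split between the pair. That sum was 602, 620 and 475 CPM in WT and 381, 360 and 343 CPM in CRY1 KO, so the groups did not overlap. Its mean in CRY1 KO was 63.9% of that in WT. Actb made up most of the sum in each library, so the sum largely repeats Actb and does not stand for Actg1. The ratio of Actb to Actg1 CPM lay at 6.11, 5.91 and 7.67 for the WT libraries and at 5.66, 7.44 and 4.39 for CRY1 KO, with overlapping groups.

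**Figure D1:**
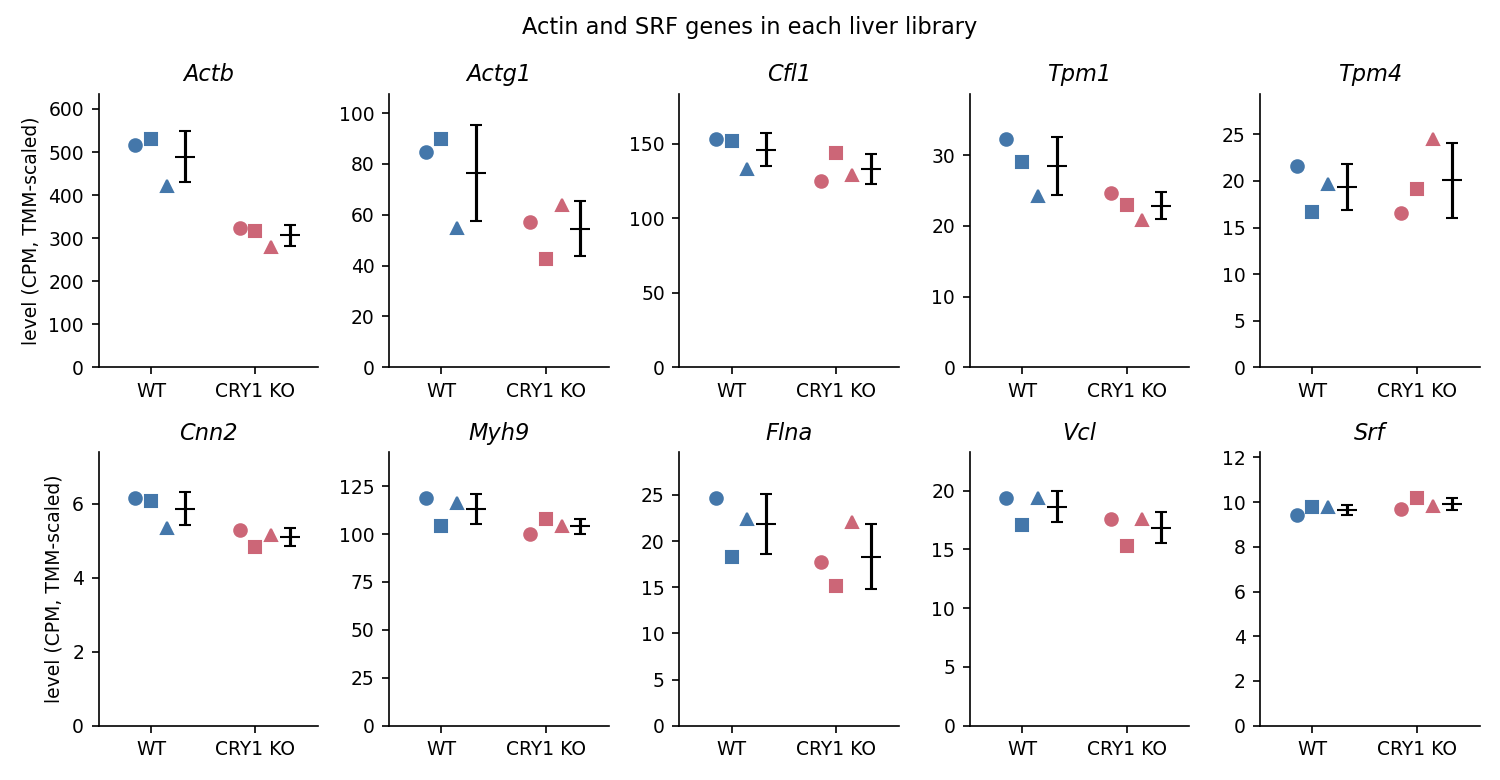
Level of each of the 10 genes in CPM (vertical axes from 0) in 3 WT libraries (blue) and 3 libraries labelled CRY1 KO (red), with circles, squares and triangles for replicates 1, 2 and 3 and black bars for the mean and SD. The groups of Actb and Cnn2 did not overlap, and those of the other genes did.

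Cfl1 encodes cofilin, which severs old filaments and returns monomers to the pool. It stood at 153, 152 and 133 CPM in WT and at 125, 144 and 129 CPM in CRY1 KO. WT 3 lay below CRY1 KO 2, so the groups overlapped, and the log2 difference was -0.14 (SE 0.10, edgeR adjusted p = 0.439).

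Tropomyosins lie along the filament and control which proteins reach it, and calponins bind along its side. Tpm1 stood at 32.3, 29.0 and 24.2 CPM in WT and at 24.7, 23.0 and 20.9 CPM in CRY1 KO. WT 3 fell just below CRY1 KO 1, and the other WT libraries lay above all CRY1 KO libraries. The log2 difference of Tpm1 was -0.32 (SE 0.12), the lowest after Actb and Actg1, and it did not pass over all genes (edgeR adjusted p = 0.2, unadjusted p = 0.032). Tpm4, another tropomyosin gene, stood at 21.6, 16.7 and 19.7 CPM in WT and at 16.6, 19.1 and 24.5 CPM in CRY1 KO. Its lowest and highest libraries were both labelled CRY1 KO, and its difference of 0.05 (SE 0.16) changed sign without WT 2 (-0.04) and without CRY1 KO 3 (-0.11). Cnn2, a calponin gene, stood at 6.17, 6.09 and 5.36 CPM in WT and at 5.29, 4.83 and 5.17 CPM in CRY1 KO. Its groups did not overlap, with a gap between WT 3 and CRY1 KO 1 that was small beside the spread of WT, and the log2 difference of -0.20 (SE 0.14) did not pass (edgeR adjusted p = 0.423). Actb and Cnn2 made up the 2 of 10 genes with every CRY1 KO library below every WT library, a pattern seen in 12.7% of all tested genes.

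Myh9 encodes the heavy chain of non-muscle myosin IIA, the motor that pulls on filaments. It stood at 119, 104 and 116 CPM in WT and at 100, 108 and 104 CPM in CRY1 KO, with overlapping groups and a log2 difference of -0.12 (SE 0.09). Flna encodes filamin A, which crosslinks filaments into a mesh. It stood at 24.7, 18.3 and 22.4 CPM in WT and at 17.7, 15.1 and 22.1 CPM in CRY1 KO, and its log2 difference was -0.25 (SE 0.16), which became -0.15 without WT 1, -0.13 without CRY1 KO 2 and -0.41 without CRY1 KO 3. CRY1 KO 3 was at the level of WT 3, and WT 2 was close to CRY1 KO 1. Vcl encodes vinculin, which ties filaments to cell adhesions. It stood at 19.4, 17.1 and 19.4 CPM in WT and at 17.6, 15.3 and 17.6 CPM in CRY1 KO, with a log2 difference of -0.15 (SE 0.10) that became -0.09 without CRY1 KO 2. WT 2 lay just below 2 of the CRY1 KO libraries. None of these 3 genes passed the edgeR test (adjusted p = 0.471 for Myh9, 0.405 for Flna and 0.44 for Vcl, and unadjusted p = 0.21, 0.155 and 0.185), nor did they pass in DESeq2 or limma-voom.

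Srf varied little between libraries. It stood at 9.41, 9.79 and 9.76 CPM in WT and at 9.69, 10.2 and 9.84 CPM in CRY1 KO, and its coefficient of variation, 2.2% in WT and 2.55% in CRY1 KO, was the lowest of the 10 genes in each group. The log2 difference was 0.04 (SE 0.10, edgeR adjusted p = 0.871), with a 95% interval from limma-voom of -0.19 to 0.27. As background, SRF activity is set largely by its cofactors and not by the amount of Srf messenger RNA alone.

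**Figure D2:**
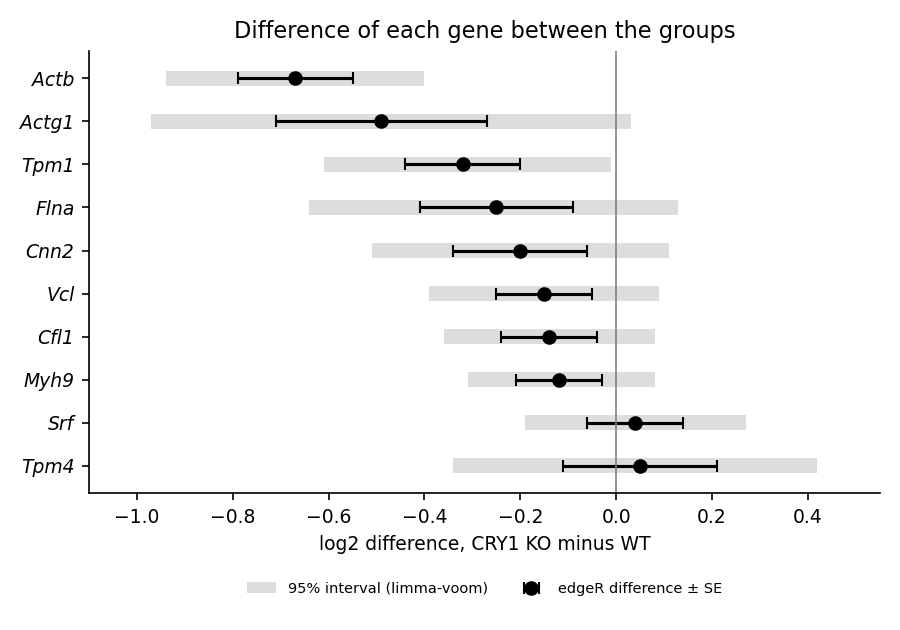
Log2 difference of each gene, CRY1 KO minus WT (horizontal axis), from edgeR with its SE (points and black bars) and with the 95% interval from limma-voom (grey bars), ordered from the lowest. The intervals of Actb (-0.94 to -0.40) and Tpm1 (-0.61 to -0.01) lie below 0 and those of the other 8 genes cross it.

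Of the 10 genes 8 had negative differences, against 52.7% of all tested genes, and the median was -0.18, against -0.02 over all tested genes. The 4 genes with an exact CArG box ran from -0.49 (Actg1) to 0.04 (Srf), and the 5 genes without one in the searched window ran from -0.32 (Tpm1) to 0.05 (Tpm4), so the ranges overlapped. Actb, at -0.67 the lowest of the 10, was not searched and is in neither range. Positive differences were those of Srf and Tpm4.

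Summed markers of Kupffer cells, which are liver macrophages, of neutrophils and of lymphocytes were lower in every CRY1 KO library than in every WT library. Actb had the same separation, as did its sum with Actg1, while Actg1 alone overlapped between the groups. In bulk tissue, fewer cells of a type and less RNA per cell cannot be told apart. The 12 Kupffer cell markers added up to 663, 415 and 259 CPM in WT 1, 2 and 3, and to 239, 238 and 242 CPM in CRY1 KO 1, 2 and 3. All 12 had negative differences with a median of -0.84, and none was at 0 in any library. While edgeR called 0 of the 12, its unadjusted p was under 0.05 in 8, against 20.7% of all tested genes. Every CRY1 KO library lay below every WT library in 8 of the 12, against 12.7% of all tested genes. DESeq2 adjusted p ran from 0.00633 to 0.277 over the 12, on both sides of the threshold. It was under 0.05 for Clec4f (0.0168), Cd5l (0.0104), Vsig4 (0.022), C1qa (0.0113), C1qb (0.00633) and C1qc (0.0104). For the rest of the list it ran from 0.0623 (Csf1r) to 0.277 (Timd4). Of all genes DESeq2 tested, 10.9% were called. The most abundant of the 12 were Clec4f (136, 82.5 and 55.4 CPM in WT and 48.2 to 52.3 CPM in CRY1 KO) and Cd5l (129, 82.1 and 42.5 CPM in WT and 38.4 to 42.2 CPM in CRY1 KO). WT 3 had nearly the marker level of the CRY1 KO libraries. In that library Actb, at 421 CPM, was still above the 279 to 324 CPM of CRY1 KO, while Actg1, at 54.8 CPM, and Tpm1, at 24.2 CPM, were inside the CRY1 KO range. Without WT 1, which had the highest marker level, the log2 difference of Actb was -0.63 (edgeR adjusted p = 0.0319). Lymphocyte and neutrophil markers were low, and their sums separated the groups with WT 3 included. The 10 lymphocyte markers, of which none was at 0, added up to 9.11, 10.07 and 14.5 CPM in WT and to 3.96 to 5.12 CPM in CRY1 KO, with WT 3 highest. Within WT this order differed from that of Actb and Actg1, which were both lowest in WT 3. Among the lymphocyte markers Jchain, the antibody joining chain gene of plasma cells, fell from 5.84, 4.12 and 9.23 CPM to 1.51, 0.947 and 1.04 CPM (log2 difference -2.45, SE 0.33, edgeR adjusted p = 0.0194), and the other 9 did not pass. Jchain was the most abundant of the 10 in every library, so their sum does not stand for the other 9, and a sum without it was not computed. Every CRY1 KO library lay below every WT library in 2 of the 10, although 9 had negative differences (median -0.62). The 5 neutrophil markers in the table, of which S100a8 and Cxcr2 were at 0 in at least 1 library, added up to 7.19, 4.21 and 2.90 CPM in WT and to 1.63 to 2.14 CPM in CRY1 KO. The part of these cells in the actin difference was not tested beyond these values. Red cell and platelet markers, of which none was at 0, added up to 2977, 1028 and 658 CPM in WT and 585 to 739 CPM in CRY1 KO. Haemoglobin genes made up most of this sum in each library, so it does not stand for the other genes of the list. Those had log2 differences of 0.02 (Alas2), 0.17 (Itga2b), -0.11 (Pf4), -0.87 (Ppbp) and -1.28 (Gp1bb), and Gp9 was not tested. Stellate and smooth muscle markers (median -0.12) and endothelial markers (median 0.12) overlapped between the groups in their sums, and Acta2, the smooth muscle actin gene, named after its values were seen, stood at 2.85, 0.607 and 1.001 CPM in WT and 0.842 to 2.08 CPM in CRY1 KO.

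**Figure D3:**
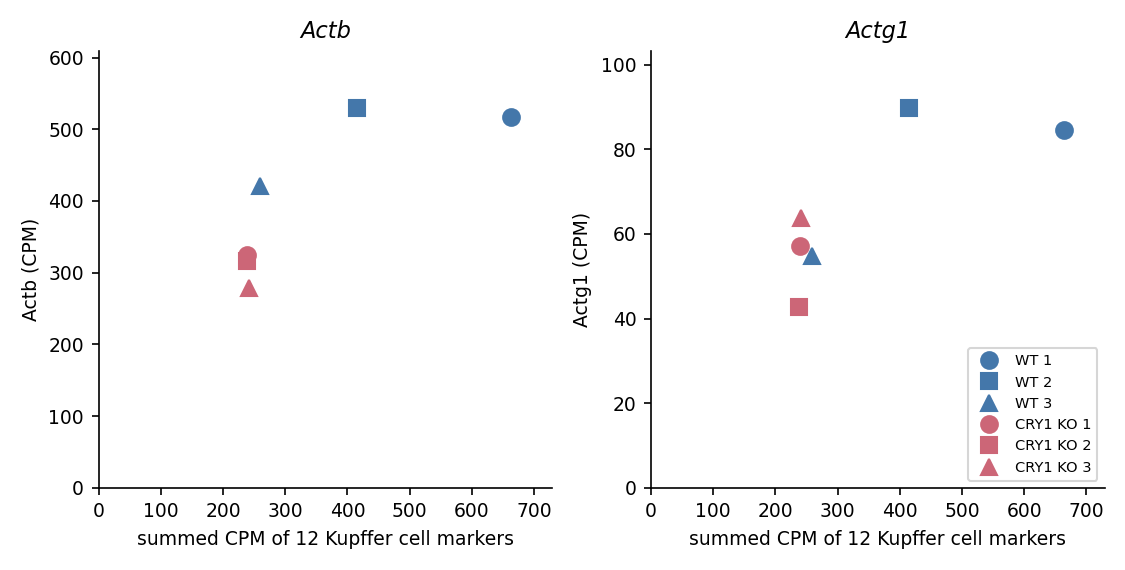
Level of Actb (left) and Actg1 (right) in CPM against the summed CPM of 12 Kupffer cell markers in each library, with WT in blue, libraries labelled CRY1 KO in red, and circles, squares and triangles for replicates 1, 2 and 3. WT 3 (259 CPM of markers) is close to the CRY1 KO libraries (238 to 242 CPM) on the horizontal axis, above them in Actb and among them in Actg1.

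The wider pathway was followed in 8 lists written from textbook knowledge, with 142 tested genes besides the 10. Of these 2 rose past the edgeR threshold, both in the list of SRF cofactors and their regulators, and 0 fell, against 1.06% and 0.644% of all tested genes. Unadjusted p was under 0.05 in 29 of the 142, which is near the 20.7% of all tested genes. Limma-voom called 1 of them (1.22% of all tested genes), and DESeq2 called 14, of which 10 were higher and 4 lower (10.9% of the genes it tested). Every library labelled CRY1 KO lay above every WT library in 29 of the 142 genes and below in 11, against 14.6% and 12.7% of all tested genes.

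Mrtfb, which encodes the SRF coactivator MRTF-B, rose. It stood at 17.4, 15.9 and 17.1 CPM in WT and at 24.8, 26.1 and 22.8 CPM in CRY1 KO. The groups were well separated (log2 difference 0.55, SE 0.09, edgeR adjusted p = 0.0349). Arhgap5, which encodes a GTPase-activating protein, rose from 37.3, 35.5 and 45.5 CPM to 54.5, 63.7 and 65.9 CPM (log2 difference 0.64, SE 0.12, edgeR adjusted p = 0.0434). Both calls were lost with library totals in place of TMM scaling (adjusted p = 0.075 and 0.114) and without WT 2 (0.148 and 0.176), CRY1 KO 1 (0.103 and 0.0841), CRY1 KO 2 (0.158 and 0.176) or CRY1 KO 3 (0.106 and 0.172). That of Arhgap5 was also lost in limma-voom (0.0556) and without WT 1 (0.0522). Over the list of 19 tested cofactors and regulators, 17 did not pass, 7 had negative differences, and the median was 0.13. Mrtfa, named outside the naming rule after its values were seen, stood at 7.30, 6.32 and 6.05 CPM in WT and at 8.77, 8.98 and 10.8 CPM in CRY1 KO, without overlap, and did not pass (log2 difference 0.54, SE 0.14, edgeR adjusted p = 0.0862).

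Of 33 other cytoskeletal genes under MRTF and SRF, 0 passed the edgeR test and 4 had an unadjusted p under 0.05. DESeq2 called 2 and limma-voom 0. Over all genes that each tool tested, these shares were 1.7%, 20.7%, 10.9% and 1.22%, in the same order. The median of the list was 0.07, with 15 negative differences, and it was -0.02 without WT 2. Tpm3, a further tropomyosin gene, stood at 85.4, 81.8 and 87.4 CPM in WT and at 70.5, 68.5 and 73.7 CPM in CRY1 KO, without overlap (log2 difference -0.26, SE 0.08, edgeR adjusted p = 0.12). Fhl1, which encodes a LIM domain protein, had the opposite sign (0.52, SE 0.16, adjusted p = 0.117).

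Another group of SRF targets answers to ternary complex factors, the cofactors used by growth factor signals in place of MRTF. Of 9 such immediate early genes tested, 0 passed the edgeR test, 2 had an unadjusted p under 0.05, DESeq2 called 1 and limma-voom 0. Those counts stand beside 1.7%, 20.7%, 10.9% and 1.22% of all genes that each tool tested. The median log2 difference of the list was 0.38. That median was 0.14 without WT 1, 0.15 without WT 2, 0.18 without CRY1 KO 2 and 0.09 without CRY1 KO 3. Dusp1, which encodes a phosphatase of MAP kinases, stood at 19.8, 9.52 and 15.7 CPM in WT and at 18.5, 44.7 and 32.7 CPM in CRY1 KO (log2 difference 1.09, SE 0.41, edgeR adjusted p = 0.219). Ier2 stood at 12.4, 19.0 and 21.9 CPM in WT and at 13.4, 11.5 and 13.4 CPM in CRY1 KO (-0.48, SE 0.20, adjusted p = 0.221). Both genes had overlapping groups.

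Of 20 genes of monomer handling and filament turnover, 0 passed the edgeR test, against 1.7% of all tested genes. An unadjusted p under 0.05 was found in 4, 3 of them with negative differences, against 20.7% of all tested genes. DESeq2 called 3 and limma-voom 0, against 10.9% and 1.22% of the genes each tested. The median of the list was 0.01. Pfn1, which encodes profilin, the protein that loads monomers onto growing filaments, stood at 133, 146 and 128 CPM in WT and at 110, 107 and 97.1 CPM in CRY1 KO. The groups did not overlap, with CRY1 KO 3 lowest as for Actb, and the log2 difference of -0.37 (SE 0.09) did not pass (edgeR adjusted p = 0.077). Ssh2, which encodes a phosphatase that activates cofilin, stood at 16.0, 13.5 and 15.4 CPM in WT and at 18.9, 20.9 and 19.3 CPM in CRY1 KO (0.40, SE 0.10, adjusted p = 0.0862).

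The Arp2/3 complex starts branched filaments. Of its 19 tested subunits and activators 0 passed the edgeR test, 5 had an unadjusted p under 0.05, DESeq2 called 1 and limma-voom 0. Among all genes that each tool tested the shares were, in that order, 1.7%, 20.7%, 10.9% and 1.22%. The median log2 difference of the list was 0.03. Wasl, which encodes the activator N-WASP, stood at 61.5, 53.4 and 60.1 CPM in WT and at 73.0, 72.4 and 75.5 CPM in CRY1 KO (0.34, SE 0.09, edgeR adjusted p = 0.0834), and Abi1 had a difference of 0.27 (SE 0.09, adjusted p = 0.142). The groups of both genes did not overlap.

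Of 16 focal adhesion genes 0 passed the edgeR test and 3 had an unadjusted p under 0.05, with a median of 0.04. Tln2, a talin gene, had a difference of -0.46 (SE 0.16, edgeR adjusted p = 0.152) and Tns1, a tensin gene, of 0.47 (SE 0.17, adjusted p = 0.171). Of 12 genes of non-muscle myosin and its regulators 0 passed and 3 had an unadjusted p under 0.05, with a median of -0.02. Among them Myo1e, an unconventional myosin gene, had a difference of 0.50 (SE 0.14, adjusted p = 0.0982) and Ppp1cb, the catalytic subunit gene of myosin phosphatase, of 0.31 (SE 0.09, adjusted p = 0.113). Of 14 crosslinkers and membrane linkers 0 passed and 1 had an unadjusted p under 0.05, with a median of 0.03. Sptan1, a spectrin gene, had a difference of -0.24 (SE 0.09, adjusted p = 0.171) and Rdx, which encodes radixin, of 0.24 (SE 0.11, adjusted p = 0.257). DESeq2 called 0, 3 and 0 genes of these 3 lists, and limma-voom called 0 in each. Shares over all tested genes were 1.7% called by edgeR and 20.7% with an unadjusted p under 0.05. They were 10.9% called by DESeq2 and 1.22% by limma-voom, each among the genes it tested.

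**Figure D4:**
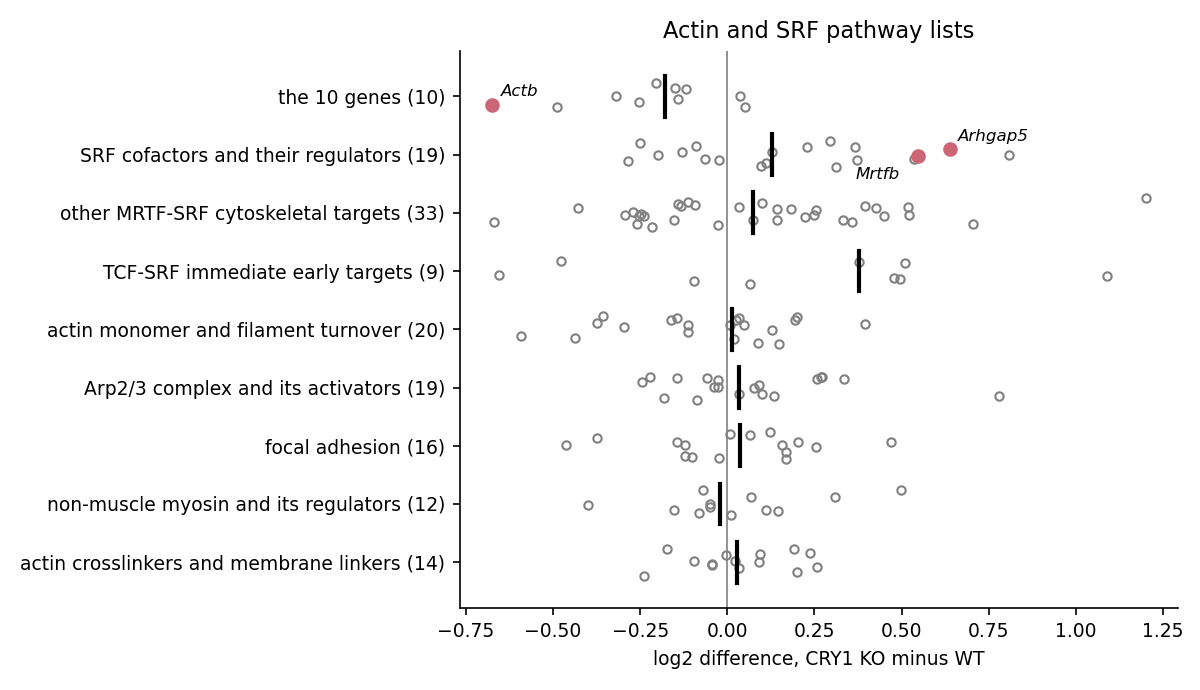
Log2 difference, CRY1 KO minus WT (horizontal axis), of each tested gene in the 10-gene set and the 8 pathway lists, with the number of genes in brackets, black lines for medians and filled red points for genes past the edgeR threshold. Actb lies at -0.67, Mrtfb and Arhgap5 lie at 0.55 and 0.64, and medians of the pathway lists run from -0.02 to 0.38.

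The genes whose levels followed the mean of the 10 genes most closely across the 6 libraries were sought among 7125 other tested genes with a mean of at least 10 CPM. The mean log2 deviation of the 10 genes came to 0.22, 0.10 and 0.02 for WT 1, 2 and 3, respectively, against -0.12, -0.17 and -0.05 for the CRY1 KO libraries. The 8 closest genes had Pearson correlations of 0.977 to 0.987, given as a description of 6 points that fall into 2 groups and share their libraries. In order they were C3, which encodes a complement component made by hepatocytes, Tbrg1, H2-Q7, a class I antigen presentation gene, Tnfrsf1a, a receptor gene for tumour necrosis factor, Cltc, the clathrin heavy chain gene, Selenos, Ifngr1 and Cyp2c67. C3 stood at 7478, 6719 and 6185 CPM in WT and at 5231, 5040 and 6005 CPM in CRY1 KO, highest in WT 1 and lowest in CRY1 KO 2 like the mean of the 10 genes. H2-Q7, whose near-identical copies make its value uncertain, was the single one of the 8 past the edgeR threshold (log2 difference -0.63, adjusted p = 0.0465).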

How the data were processed

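The authors deposited 1 table with a value per gene for 6 liver samples, and all of its columns were matched by title. The values the authors deposited are whole numbers, treated as estimated counts, made by a step that no label or header names. Genes at the value 3 outnumbered those at 1, 2 or 4 in every library, so a unit of these values need not be a single fragment. The submitters' processing notes list HISAT2 2.2.1 and StringTie 2.1.7, with Trim Galore 0.6.7 and limma 3.42.2, and the build GRCm39 (mm39). Their order, settings, annotation and strand setting were not given in the sources used here.

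Genes were kept with filterByExpr (minimum count 10, minimum total 15) in edgeR 4.0.16, scaled by TMM and compared with its quasi-likelihood test and Benjamini-Hochberg adjustment over 13816 genes, at a threshold of 0.05. Log2 differences are CRY1 KO minus WT. Intervals (95%) come from limma 3.58.1 (voom). Alternatives were DESeq2 1.42.0, limma-voom, other scalings, no filter, a replicate block and leaving out each library. The script was tested on simulated data. The 10 genes, the lists and the alternatives were chosen with earlier results of these data known. Named were the 10 genes, called genes and the 2 smallest p of each pathway list, the 2 most abundant genes of marker lists, and the 8 genes closest in pattern. Not all marker genes taken by this rule are printed. Of 153 pathway entries 149 were in the table and 142 were tested. Other marker lists had medians of -0.03 (bile duct), 0.09 (hepatocyte), -1.19 (red cells and platelets), -1.45 (neutrophils), -0.62 (lymphocytes) and 0.15 (capsule). A further reference transcript that was looked up is not reported here.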

Additional observations from a re-analysis of the deposited data

How the results depend on the processing

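Actb had a log2 difference between -0.77 and -0.61 under all alternatives, and it was called in each except those without WT 2, CRY1 KO 1, CRY1 KO 2 or CRY1 KO 3, so that 0 to 1 of the 10 genes were called over the libraries left out in turn. The other 9 genes were called under no alternative, and the direction changed for Tpm4 (-0.04 without WT 2 and -0.11 without CRY1 KO 3, in a range up to 0.17) and for none of the other 8. Over all genes 235 were called, against 113 with library totals alone, 1322 by DESeq2, 94 with the replicate block and 17 to 844 over the libraries left out. No label says that the replicate numbers pair the samples. Deviations of same-numbered libraries correlated at -0.0658, -0.0143 and 0.0697, which shows no pairing but, with 3 libraries per group, cannot settle whether a number marks a shared batch. With the block, Actb kept its call (adjusted p = 0.0449), and Mrtfb (0.0837) and Arhgap5 (0.0636) did not pass, leaving 0 called SRF cofactors and regulators. That list had 0 calls with library totals, 1 by limma-voom, 4 by DESeq2 and 0 to 3 over the libraries left out, where its median ran from 0.14 to 0.25. DESeq2 called 2 other MRTF and SRF targets, 1 immediate early gene, 3 turnover genes, 1 gene of the Arp2/3 list and 3 of the myosin list. Over the libraries left out, calls ran from 0 to 1 for the other MRTF and SRF targets, 0 to 2 for immediate early genes and 0 to 2 for turnover genes, and medians from -0.06 to 0.03 for turnover, -0.01 to 0.07 for Arp2/3, 0.01 to 0.13 for focal adhesion, 0.09 to 0.43 for immediate early genes, -0.02 to 0.17 for the other MRTF and SRF targets, -0.04 to 0.04 for myosin and -0.01 to 0.08 for crosslinkers. The cause of these changes was not tested. Fits without a library also have fewer samples.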

Other observations

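Actb is widely used as a reference transcript, and 14 other such transcripts were looked up, in a list written after the values of Actb were seen. None of the 14 passed the edgeR test over all genes, against 1.7% of all tested genes. Unadjusted p was under 0.05 in 1, against 20.7% of all tested genes. DESeq2 called 1, against 10.9% of the genes it tested (Sdha in both cases). At these shares, 0 edgeR calls does not show that the 14 were unchanged. Their log2 differences ran from -0.92 (Tfrc, the transferrin receptor gene) to 0.33 (Sdha, a subunit gene of succinate dehydrogenase), with a median of 0.09 and 5 below 0. Gapdh, the glycolytic enzyme gene, had a difference of 0.17 (edgeR adjusted p = 0.489), Ppia of 0.07 (0.769) and Hprt of 0.10 (0.629). A transcript with equal CPM in both groups would come out 1.6 times as high in the libraries labelled CRY1 KO once divided by Actb.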
